A study of Homo sapiens with 2 samples.

Results

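RAB genes encode small GTPases that mark the membranes of the secretory and endocytic pathways. The members described here are the 63 protein-coding genes, of 19974 on chromosomes 1 to 22 and X, whose symbol is RAB followed by a number and at most 1 letter from A to D. They were examined for R-loops, in which an RNA strand pairs with 1 DNA strand and leaves the other unpaired, in A549, a cell line from a human lung carcinoma that the labels give as wild type. R-loops were profiled by CUT&Tag, in which an antibody tethers a transposase that cuts and tags the DNA nearby. Of 2 libraries, the first used S9.6, which recognises RNA-DNA hybrids, and its peaks are described here; the second, with IgG as a non-specific antibody, was not analysed. The series title links R-loops to YTHDF1, a reader of methylated RNA, but both libraries are labelled wild type, so the comparison is of genes within 1 library.

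A RAB protein is switched on by an exchange factor that loads GTP and switched off by a GTPase-activating protein. In its active form it recruits effectors such as tethers and motor proteins to a membrane, and a prenyl group at its carboxyl end anchors it there. Inactive RAB proteins are drawn from membranes by GDI proteins. In epithelial cells such as those of the lung, this cycle directs the export of new proteins, the recycling of surface receptors and delivery to lysosomes. R-loops are known from transcribed promoters with GC-rich sequence, so the questions were which RAB genes carried S9.6 signal, how high it was and where along the gene it lay.

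The list held 47810 peaks, 45756 of them on chromosomes 1 to 22 and X. Each peak has a total signal (coverage summed over its bases) and a maximum coverage (the highest pile-up), both as deposited whole numbers, and the sequencing depth behind them is unknown. Coverage was shallow, with a median maximum of 2, and the lowest total signal in the list was 745, so signal below that level is unseen. There was no replicate, so no test between conditions or libraries was possible, and the 95% Wilson intervals of shares cover counting error only. A peak list does not measure expression, and marker genes read from it were mixed: of 6 epithelial markers 4 had a peak at a gene boundary, as did 3 of 4 lung and 2 of 4 leukocyte markers. EPCAM, PTPRC and CD3E had no peak, nor did CDKN2A, which is known to be deleted in A549.

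The promoter sequences of 6 members are shown because these had the highest S9.6 peaks over a listed gene start. RAB1B tied at a maximum of 9 with RAB10, RAB11A and RAB11B and was taken for its larger total signal. Those of 2 members without any peak follow, chosen for the lowest and highest GC content. Each runs from 150 bases before the start to base 30 of the transcript on the gene's own strand (RefSeq, GRCh38.p14), and capitals mark runs of at least 3 G or 3 C.
RAB4B: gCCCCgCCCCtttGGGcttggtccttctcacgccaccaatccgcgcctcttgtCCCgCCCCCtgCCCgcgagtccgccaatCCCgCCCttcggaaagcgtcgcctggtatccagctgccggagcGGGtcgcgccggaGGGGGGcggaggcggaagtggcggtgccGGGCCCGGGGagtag
RAB5B: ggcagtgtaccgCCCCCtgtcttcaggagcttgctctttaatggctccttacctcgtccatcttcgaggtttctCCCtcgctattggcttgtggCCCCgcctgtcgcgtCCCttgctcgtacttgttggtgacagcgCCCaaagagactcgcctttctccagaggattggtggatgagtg
RAB8A: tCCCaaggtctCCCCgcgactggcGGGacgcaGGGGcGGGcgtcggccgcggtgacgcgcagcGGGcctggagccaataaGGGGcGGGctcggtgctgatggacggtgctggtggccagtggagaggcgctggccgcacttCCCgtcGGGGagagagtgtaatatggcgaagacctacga
RAB3A: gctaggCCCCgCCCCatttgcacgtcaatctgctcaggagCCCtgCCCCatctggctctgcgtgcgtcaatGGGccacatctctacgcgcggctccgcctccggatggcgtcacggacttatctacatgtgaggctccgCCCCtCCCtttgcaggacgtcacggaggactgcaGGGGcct
RAB40C: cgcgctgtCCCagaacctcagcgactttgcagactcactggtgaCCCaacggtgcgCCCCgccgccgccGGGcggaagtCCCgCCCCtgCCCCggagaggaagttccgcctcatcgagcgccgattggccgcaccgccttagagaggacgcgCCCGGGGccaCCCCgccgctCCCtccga
RAB1B: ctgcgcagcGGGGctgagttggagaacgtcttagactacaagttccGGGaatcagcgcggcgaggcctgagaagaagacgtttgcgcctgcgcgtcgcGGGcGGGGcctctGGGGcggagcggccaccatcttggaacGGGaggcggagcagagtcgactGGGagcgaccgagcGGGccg
RAB40A: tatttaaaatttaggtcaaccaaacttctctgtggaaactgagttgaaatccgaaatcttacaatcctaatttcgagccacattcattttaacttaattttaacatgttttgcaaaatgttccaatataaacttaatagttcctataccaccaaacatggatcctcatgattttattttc
RAB24: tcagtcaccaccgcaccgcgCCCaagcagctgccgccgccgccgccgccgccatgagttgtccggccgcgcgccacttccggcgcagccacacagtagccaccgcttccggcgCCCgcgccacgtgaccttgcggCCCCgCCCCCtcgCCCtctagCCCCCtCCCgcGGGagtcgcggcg

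These windows lie at chr19:40778097-40778276 (plus strand), chr12:55973799-55973978 (plus), chr19:16111739-16111918 (plus), chr19:18204013-18204192 (minus), chr16:589207-589386 (plus) and chr11:66268489-66268668 (plus). RAB40A lies at chrX:103519460-103519639 (minus) and RAB24 at chr5:177303690-177303869 (minus). The windows of RAB40C and RAB8A lay partly outside the peak, and of the 6 only that of RAB5B held the summit. The runs therefore do not describe the sequence at the summits of the others. The 6 promoters with a high peak over the start did not share 1 pattern of G runs. The printed strand of RAB1B had 8 G runs and 0 C runs, whereas that of RAB5B had 0 G runs and 5 C runs. RAB8A was mostly G-rich, with 7 G runs and 3 C runs, and RAB4B had 5 and 8. RAB40C had 2 G runs and 9 C runs, and RAB3A 2 and 6. GC content over the printed bases was 57.2% in RAB5B and between 65% and 73.9% in the other 5. RAB40A had 29.4% and no run of either kind, but RAB24 had 77.8%, 8 runs and 29 CG dinucleotides, more than any of the 6, and still no peak.

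Of the 63 RAB genes, 33 had at least 1 base of a peak within 1000 bp of either boundary of the gene span (52.4%, 95% interval 40.3 to 64.2), against 40.1% of all protein-coding genes. Another 13 had a peak inside the span alone and 17 had none. A peak over the span or within 1000 bp of it was therefore present for 46 members (73.0%, interval 61.0 to 82.4), against 60.4% of all protein-coding genes. The median span was 30011 bp for RAB genes and 24170.5 bp for all protein-coding genes, and the shares were not adjusted for this. Both shares were above the background, with the background close to the lower end of each interval.

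The height of the peaks stood further from the background than their number. A boundary peak with a maximum coverage of at least 5 was found at 22 of 63 RAB genes (34.9%, interval 24.3 to 47.2), against 14.5% of all protein-coding genes. With a maximum of at least 3 the count was 32 of 63 (50.8%), against 32.2% of all protein-coding genes. The median of the highest boundary peak was 5 over the 33 RAB genes and 4 over the 8001 protein-coding genes with such a peak. At 10 or more stood 5 of the 33 (15.2%), against 5.30% of the 8001. At 1 or 2 stood 1 RAB gene (3.03%), against 19.6%. High boundary peaks were also common in 2 other small GTPase families, where a maximum of at least 5 was reached by 8 of 29 ARF and ARL genes (27.6%) and 6 of 20 RAS genes (30%). The excess over all protein-coding genes is thus not shown to be particular to RAB genes, and these differences were not tested.

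**Figure D1:**
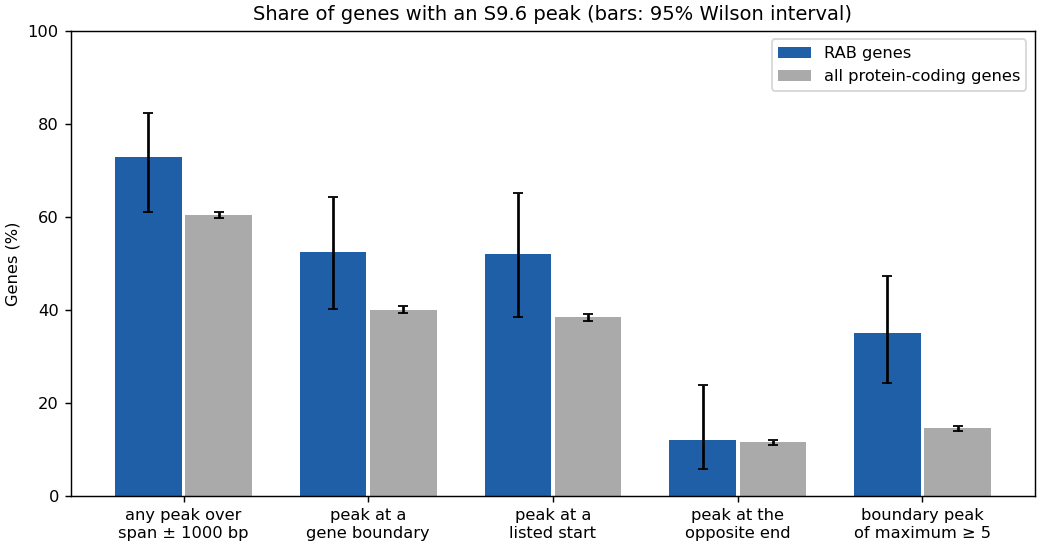
Share of RAB genes (left bar of each pair) and of all protein-coding genes (right bar) with an S9.6 peak of each kind, in percent, with 95% Wilson intervals. Starts and opposite ends are over 50 RAB genes and 15812 protein-coding genes with a listed start; the widest gap in ratio is at boundary peaks of maximum coverage 5 or more, 34.9% against 14.5%.

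Early endosome and recycling members held the highest peak. Of these 16 genes, 11 had a boundary peak, and 8 (50%) reached a maximum of at least 5. RAB4B, which acts in rapid recycling from early endosomes, had the highest of any member, at a maximum of 15 with 7344 in total signal at chr19:40777606-40779136. Among protein-coding genes with a boundary peak, 1.29% reached this height. A second peak of maximum 3 lay just upstream, and 2 weaker ones of 2 and 3 inside the gene.

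All members of the RAB5 trio, which drive fusion of early endosomes, had a boundary peak, but the heights differed. RAB5B reached 12 with a total of 4657 at chr12:55973185-55974439, RAB5A reached 5 (total 1389) and RAB5C reached 4 (total 2608). RAB11A and RAB11B, the GTPases of recycling endosomes, both reached 9. The RAB11A peak, at chr15:65868310-65870975, was 2666 bp wide with a total of 6759, and that of RAB11B, at chr19:8389970-8390823, was 854 bp wide with a total of 3895. Equal maxima thus went with unequal width. RAB25, the epithelial relative of RAB11, had a peak of 3 (total 798) at its far end and none at its start.

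Among the remaining recycling members, RAB22A reached 6 (total 1915), RAB21, known for integrin traffic, 5 (total 1054), RAB35 5 (total 1871) and RAB14 3 (total 1125). RAB35 carried 3 boundary peaks, at 5 over the start and 3 and 3 around the opposite end. RAB4A, RAB15 and RAB31 had 1 peak each, inside the span, and RAB17 and RAB20 had none.

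ER and Golgi members had a like share of high peaks. Of 13 genes, 8 had a boundary peak, 7 (53.8%) reached a maximum of at least 5, and RAB41 was the single one with no peak at all. RAB1B, which acts between the endoplasmic reticulum and the Golgi, had the largest total signal of any member, 7762, over 2265 bp at chr11:66267672-66269936, with a maximum of 9. Its paralogue RAB1A reached 5 with a total of 2715. RAB2B reached 7 (total 2039) at chr14:21476633-21477571, and RAB2A on chromosome 8 reached 6 (total 3053). Both pairs of paralogues in early secretory transport therefore carried boundary peaks. RAB6A, which serves retrograde Golgi transport, and the Golgi proteins RAB30 and RAB43 each reached 5, with totals of 1897, 1498 and 769. RAB18, found on the ER and lipid droplets, reached 3 (total 1489). RAB6B, the RAB6 isoform known mainly from brain, had 2 peaks of 2 inside the span. RAB19, RAB33A and RAB33B had 1 inside peak each, and that of RAB33B reached 5.

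Among 13 exocytosis and granule members, 7 had a boundary peak (53.8%, interval 29.1 to 76.8), against 40.1% of all protein-coding genes. The levels of these peaks fell into a high and a low set. RAB8A, which directs vesicles to the plasma membrane and the cilium, reached 12 with a total of 2291 in 625 bp at chr19:16111277-16111901. RAB3A, a synaptic vesicle GTPase, reached 11 (total 3229) at chr19:18203721-18204671. RAB10, known for glucose transporter exocytosis, reached 9 (total 4058) at chr2:26033206-26034947. The other 4 were lower, with RAB26, RAB37 and RAB13 at 4 (totals 1426, 957 and 821) and RAB8B at 3 (total 810). RAB3B, RAB27B and RAB44 had no peak, and RAB3C, RAB3D and RAB27A had peaks inside the span alone.

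Late endosome, lysosome and autophagy members had the lowest share with a boundary peak of the 8 role groups. Of 8 genes, 1 had a boundary peak (12.5%, interval 2.24 to 47.1), the peak of maximum 2 and total 1223 at the far end of RAB7B. RAB7A, the main GTPase of late endosomes, had no boundary peak and 4 peaks inside its span, all with a maximum of 2 or 3, the nearest 20496 bp from a boundary. RAB12 had 1 inside peak, and RAB9A, RAB9B, RAB24, RAB39A and RAB39B had none. RAB9A, RAB9B and RAB39B lie on chromosome X, where 21.5% of protein-coding genes had a boundary peak and 0 of the 6 RAB genes did. The groups are small and their intervals overlap, and the difference between roles was not tested.

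The small groups were mixed. Of the cilium-linked genes RAB34 reached 5 (total 5488), RAB28 reached 4 (total 1667) and RAB23, an inhibitor of hedgehog signalling, had no peak. RAB40C and RAB40B, which carry a SOCS box and serve in ubiquitin ligases, reached 10 and 5, whereas RAB40A on chromosome X had none. The RAB40C peak, at chr16:589312-590012, had a total of 4328, and that of RAB40B 1947. Of the members at lysosome-related organelles RAB32 reached 3 (total 1064), RAB38 had 1 peak inside its span of 371729 bp, and RAB29 had none. RAB36 reached 6 (total 3137), and RAB42 and the short genes RAB6C and RAB6D had no peak.

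**Figure D2:**
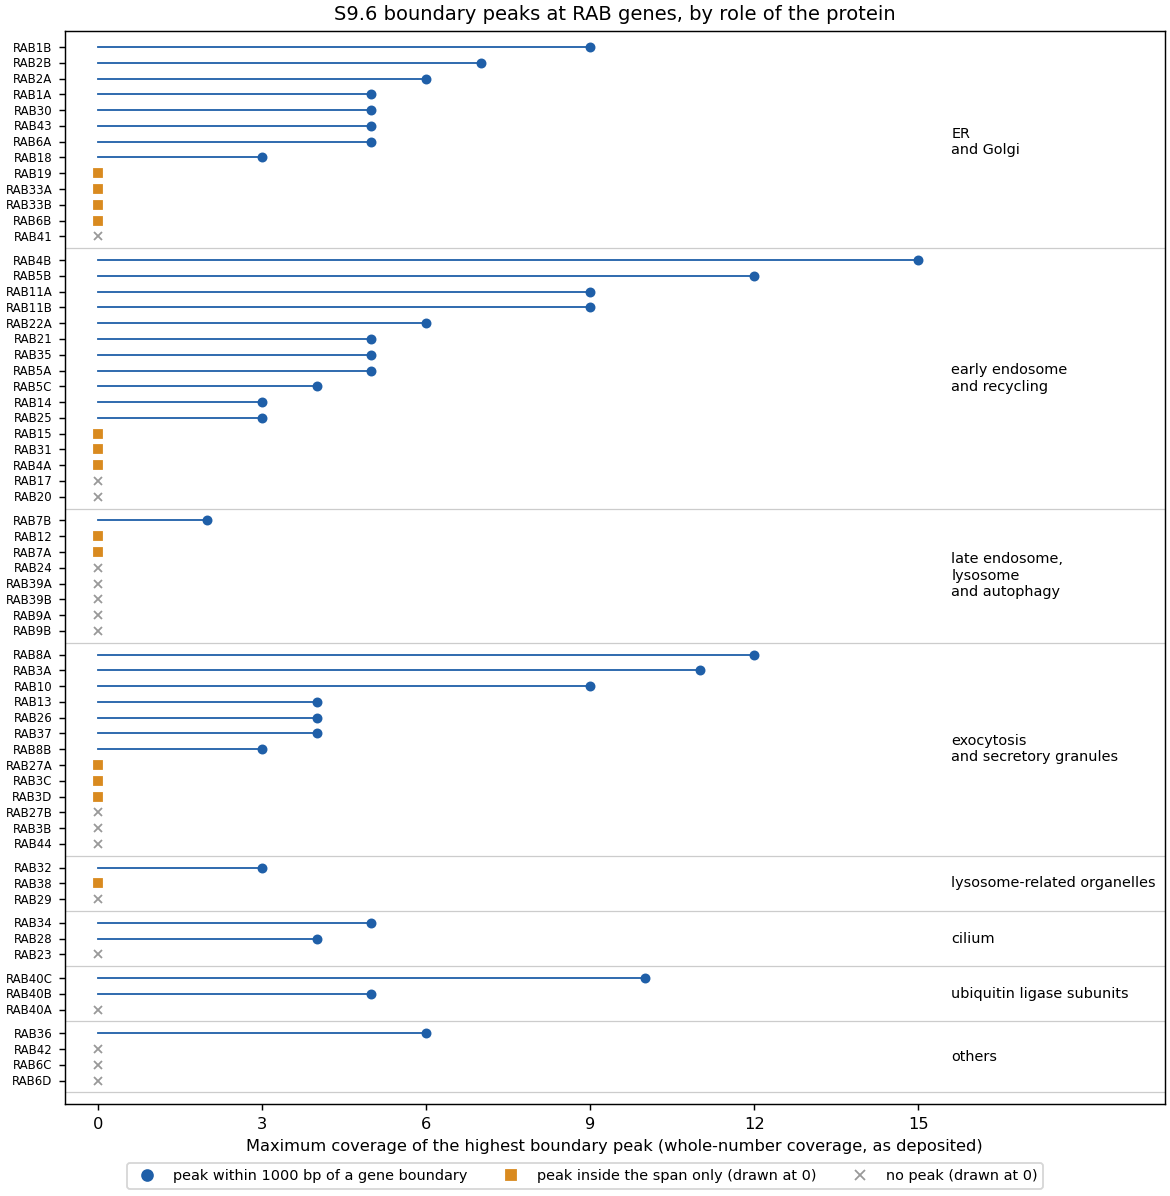
Maximum coverage of the highest boundary peak of each of the 63 RAB genes, grouped by the role of the protein, with members lacking a boundary peak drawn at 0. RAB4B stands highest at 15, and RAB7B at 2 is the single late endosome and lysosome member above 0.

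Of 14 subfamilies of paralogues that share a number, with 34 members in all, 5 had a boundary peak at every member (RAB1, RAB2, RAB5, RAB8 and RAB11), 4 at none (RAB9, RAB27, RAB33 and RAB39) and 5 at some. Among these 5 the split was widest in RAB4, where RAB4B had 15 and RAB4A no boundary peak, and in RAB3, where RAB3A had 11 and RAB3B, RAB3C and RAB3D had none. In RAB8 both members had one, at 12 for RAB8A and 3 for RAB8B. Taken singly, 52.4% of RAB genes and 40.1% of all protein-coding genes had a boundary peak. Most subfamilies had 2 members. Agreement within groups of such size was not counted over all protein-coding genes and was not tested. No peak was shared between 2 RAB genes, so each value stands for its own locus.

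A start was listed in RefSeq for 50 members. The other 13 were RAB1A, RAB2A, RAB12, RAB15, RAB20, RAB26, RAB33A, RAB33B, RAB36, RAB37, RAB38, RAB39B and RAB44. A peak lay within 1000 bp of a start in 26 of the 50 (52%, interval 38.5 to 65.2), against 38.4% of protein-coding genes with a listed start. At the opposite end of the gene 6 of the 50 had a peak (12%), against 11.4% of protein-coding genes. RAB5B, RAB8A, RAB35 and RAB40C had both, and RAB7B and RAB25 had a peak at the far end alone. The far-end peaks of RAB5B, RAB8A and RAB35 also lay at a boundary of SUOX, HSH2D and BICDL1. That of RAB7B also lay at SLC26A9-AS1. Those of RAB40C and RAB25 touched no boundary of another protein-coding or lncRNA gene. RAB boundary peaks with a known side were thus mostly at starts, and their share at far ends was near the background.

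For peaks at starts, the summit was placed relative to the nearest listed start. In 25 members the highest boundary peak was the one at the start, and its summit lay upstream of the nearest listed start in 15 and downstream in 10, with a median of -102 bp. In 23 of the 25 the summit was within 300 bp of the start. The 25 peaks were picked for lying within 1000 bp of a listed start, so some closeness was built in. Summit offsets were not computed over all protein-coding genes. In 22 of the 25 the peak covered the start itself. RAB5A and RAB32 had peaks that began 35 and 174 bp downstream of the start, and the RAB8B peak ended at -162 bp. Measured from the listed start nearest its summit, the RAB34 peak extended furthest on the upstream side, to -1439 bp. RAB34 has 3 listed starts and this is not the outermost, so its rank depends on the start used. The peaks of RAB1B and RAB11A spread on both sides, to 1297 and 1484 bp downstream.

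**Figure D3:**
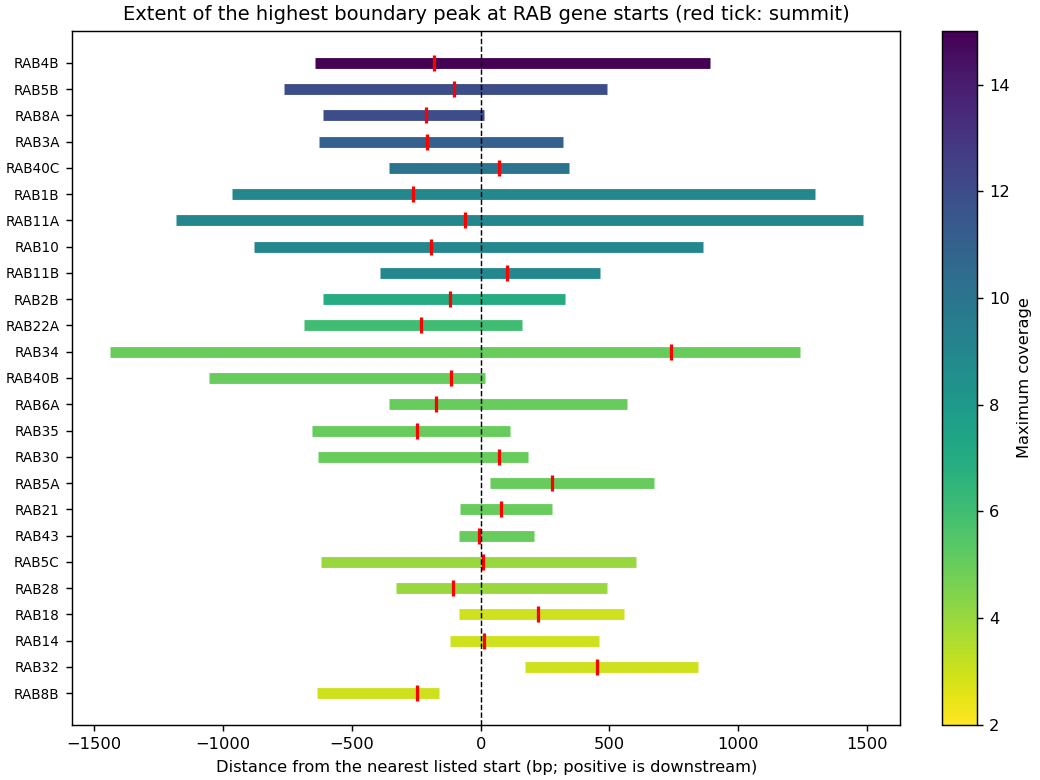
Extent of the highest boundary peak (horizontal bar) relative to the nearest listed start (dashed line, in bp, downstream to the right) for the 25 RAB genes whose highest boundary peak is at the start, coloured by maximum coverage, with the summit as a red tick. Most bars cross the start, and 15 of 25 summits lie upstream of it.

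Many of these peaks also lay at a neighbour. For 10 of the 33 members the highest boundary peak also touched the boundary region of another protein-coding gene: RAB1B with KLC2, RAB2B with TOX4, RAB4B with MIA, RAB5A with EFHB, RAB5B with CDK2, RAB13 with RPS27, RAB14 with GSN, RAB26 with TRAF7, RAB34 with RPL23A and RAB37 with NHERF1. Such sharing was near the background. The highest boundary peak lay at no other protein-coding gene for 23 of 33 members and 5345 of 8001 protein-coding genes. A lncRNA boundary was touched in 15 cases, among them the antisense genes RAB5C-AS1, RAB11B-AS1 and RAB35-AS1 and the divergent transcript RAB30-DT. Sharing with lncRNA genes was not counted over all protein-coding genes. In 11 members, among them RAB8A, RAB11A, RAB22A and RAB40C, the peak touched no boundary of any other such gene. S9.6 peaks carry no strand here, so a hybrid of the RAB transcript and one of the neighbour cannot be told apart. Without the 10 members, 23 of 53 RAB genes had a boundary peak (43.4%), against 30.9% when protein-coding genes were treated in the same way.

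The highest boundary peak of RAB13, of maximum 4, overlapped the upstream end of the gene span but had its summit outside it at -4398 bp from the nearest listed RAB13 start, at the boundary of the ribosomal protein gene RPS27. A separate peak within 1000 bp of a listed RAB13 start reached 2. The RAB37 peak lay 879 bp beyond the gene, the furthest of any member just inside the limit of 1000 bp, and RAB20 was just outside it, with a peak of maximum 3 at 1162 bp.

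Away from the boundaries the RAB genes carried weaker signal. There were 98 distinct peaks over or within 1000 bp of the spans, 40 at a boundary and 58 inside. Inside here means away from both span boundaries, so it includes a peak near an internal listed start in RAB13 and in RAB30. The boundary peaks had a median maximum of 5 (range 2 to 15) and a median total of 1701.5. The inside peaks had a median maximum of 2 (range 2 to 5) and a median total of 979.5, near the 986 of the whole list. Of the 58 inside peaks, 39 had a maximum of 2, and 2 reached 5: that of RAB33B and that of RAB27A, the melanosome and granule GTPase, at chr15:55290225-55291390. The inside peaks belonged to 33 members, 20 of which also had a boundary peak. RAB10, RAB37 and RAB40C had the most peaks in all, 6 each, which came to 5.65, 7.67 and 14.3 per 100 kb of span with its margins. RAB26, a short gene with 4 peaks, had 49.9 per 100 kb, against 0.268 in RAB38 and 0.358 in RAB3C.

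The density of peaks in the surrounding region moved with these calls. Counted over the span and 500 kb on each side, with the gene's own peaks included, the median was 34.5 peaks per Mb around RAB genes with a boundary peak (range 3.58 to 162), 12.6 around those with inside peaks alone and 7.98 around those with none. Over all protein-coding genes the median was 34.6 for those with a boundary peak and 13.95 for those without. Regardless of calls, it was 25.4 around the RAB genes and 20.5 around all protein-coding genes. Exceptions ran both ways. RAB28, RAB21, RAB32 and RAB5A had boundary peaks of 4, 5, 3 and 5 in regions with under 5 peaks per Mb, and RAB24 had none in a region with 79.8. Across the 33 members with a boundary peak, surrounding density and maximum coverage had a Spearman correlation of 0.35, given as a description of points from 1 library. The part of regional density in the results for RAB genes was not tested.

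**Figure D4:**
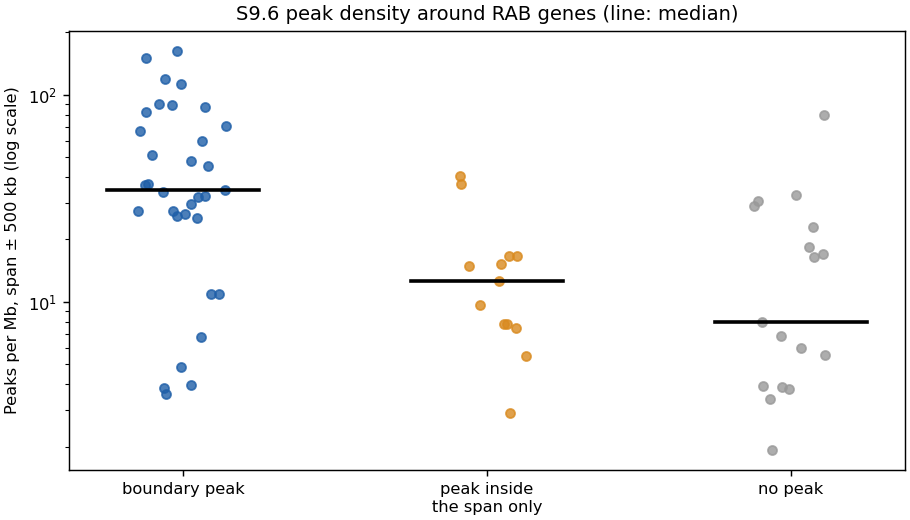
S9.6 peaks per Mb (log axis) over the gene span and 500 kb on each side, for RAB genes with a boundary peak, with a peak inside the span alone and with no peak; each point is a gene and the line is the median. Medians are 34.5, 12.6 and 7.98, with wide overlap.

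By chromosome, boundary peaks were found at 4 of 4 members on chromosome 17 and 4 of 5 on chromosome 19, where 54.7% and 51.3% of protein-coding genes had one. All 3 members on chromosome 12 also had one, against 40.6% of its protein-coding genes. None of the 6 on chromosome X did, against 21.5%, none of the 3 on chromosome 18, against 30.4%, and neither of the 2 on chromosome 5, against 36.1%. The single members on chromosomes 7 and 13 had none, against 38.8% and 29.3%. With so few members on each chromosome these counts do not separate RAB genes from their chromosomes. On chromosome 6, 1 of 3 members had one, against 16.7% of its protein-coding genes. Chromosomes 6 and X had the lowest shares of protein-coding genes among the chromosomes with a RAB gene. Without chromosomes 6 and X, the share was 32 of 54 (59.3%), against 42.3% of protein-coding genes.

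Promoter sequence was compared over windows of 300 bases, 250 before to 50 after the outermost listed start. The median GC content was 65% over the 50 RAB genes, against 62.7% over 15812 protein-coding genes. It was 68.5% in the 26 RAB genes with a start peak and 60.8% in the 24 without, against 66% and 59.7% in protein-coding genes split in the same way. The RAB genes thus showed the same direction as genes at large. No start peak was seen in the 4 RAB genes under 50% GC, against 3 of 10 from 50% to 60%, 14 of 23 from 60% to 70% and 9 of 13 at 70% or more. Over all protein-coding genes the share with a peak at the outermost start was 3.27% under 40% GC and 11.7% from 40% to 50%, so 0 of 4 RAB genes is near the background. It was 30.9% from 50% to 60% GC, 47.3% from 60% to 70% and 45.9% above. Members of high GC also lacked peaks: RAB31, with the highest GC of any RAB promoter at 82.7%, had none at its start, nor had RAB24 (78%) or RAB4A (75.7%).

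**Figure D5:**
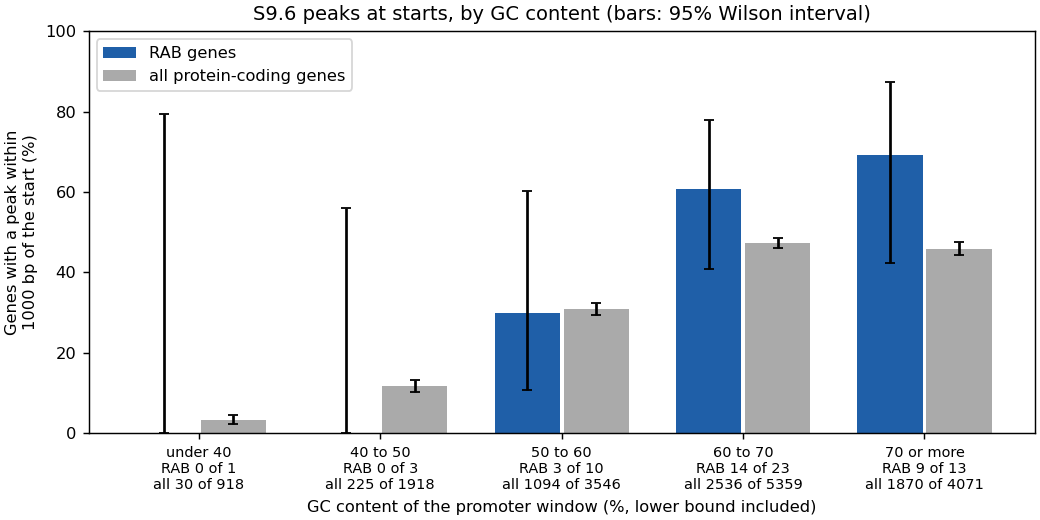
Share of RAB genes (left bar) and of all protein-coding genes (right bar) with an S9.6 peak within 1000 bp of the outermost listed start, in percent, by GC content of the promoter window, with 95% Wilson intervals and counts under each pair. In RAB genes the counts are 0 of 4 below 50% GC and 23 of 36 at 60% or more.

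The GC box GGGCGG, searched on both strands, was found in 39 of 50 RAB windows (78%), against 58.3% of protein-coding windows. Among genes with a start peak it was in 23 of 26 RAB windows (88.5%), against 73.1%. A pattern able to form a G-quadruplex (4 runs of at least 3 G separated by 1 to 7 bases, either strand) was present in 14 of 50 RAB windows (28%), against 30.1%. It was in 7 of 26 RAB windows with a start peak and 7 of 24 without. On the transcript's strand it lay in 7 of 26 and 3 of 24 of these, and on the other strand in 2 of 26 and 7 of 24; a window can hold both. Over all protein-coding genes the strands were nearly even, at 1126 and 1055 of 5755 windows with a start peak and 1567 and 1507 of 10057 without, and the split in RAB genes rests on few windows. GC skew, the excess of G over C as a share of both, had a median of 0.02 in RAB windows and 0.01 in all. RAB43, with 4 listed starts, had the highest skew at its outermost start (0.53). These matches describe the letters in the windows and mark no site of a hybrid.

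The partners of RAB proteins were read from lists of regulators and effectors. Of 121 partner genes, the boundary count was 64 (52.9%), against 52.4% of RAB genes and 40.1% of all protein-coding genes. A maximum of at least 5 was reached by 24 (19.8%), against 14.5% of all protein-coding genes. Among prenylation and GDI factors the count was 6 of 8, led by RABAC1, a prenylated RAB acceptor, at 9, RABIF at 5 and GDI2, which extracts inactive RAB proteins from membranes, at 3. Of 34 exchange factors 20 had a boundary peak, with 15 at ANKRD27, which activates RAB21, 10 at DENND3 and 7 at MON1B, part of the exchange factor for RAB7A.

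Of 36 GTPase-activating proteins 22 had a boundary peak, with 19 at TBC1D10B, 11 at TBC1D17 and 9 at EVI5L. Effectors were lower, at 16 of 43 (37.2%, interval 24.4 to 52.1), near the 40.1% of all protein-coding genes. Their highest were 9 at VPS35, a retromer subunit, 9 at BICD2, a dynein adaptor that binds RAB6, and 8 at RAB11FIP5, which binds RAB11. The VPS35 peak also lay at ORC6, and those of ANKRD27, TBC1D10B and TBC1D17 at RGS9BP, MYL11 and AKT1S1. Effector genes had a peak over the span in 33 of 43 cases (76.7%), against 60.4% of all protein-coding genes, with a median span of 62875 bp against 24170.5 bp. In the same 2 small GTPase families a boundary peak was found at 17 of 29 ARF and ARL genes (58.6%) and 7 of 20 RAS genes (35%).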

How the data were processed

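A peak list from 1 S9.6 CUT&Tag library of A549 cells was used; the IgG library was not analysed here. The submitters' processing notes name SEACR 1.3, a peak caller, Bowtie2 2.4.2, an aligner, and also deepTools 3.5.2, SAMtools 1.9, fastp 0.23.2 and bedtools 2.30.0, with GRCh38 as the build. How the threshold, control and duplicates were set is not given in the sources used here. In 2 signal columns the deposited list holds total signal and maximum coverage as whole numbers; in 0 of 47810 peaks did the total exceed width times maximum.

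Gene spans were those of RefSeq (GRCh38.p14), and starts came from its promoter table, which listed 50 of 63 members. A peak counted at a boundary with at least 1 base inside a window of 1000 bp around the first or last base of a span. The summit is the middle of the maximum region. Python 3.11.15, pandas 2.3.3, NumPy 2.4.6 and SciPy 1.17.1 were used, and overlaps were checked on simulated intervals. No test was run, since 1 library has no replicate. Members and lists were chosen with earlier results of these data known. All members are accounted for; of partners, the 3 with the highest boundary peak per list are named. Of 122 listed partner symbols 121 matched, 1 being an older symbol of another. Alternatives changed the window, the overlap, the peaks used or the members.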

Additional observations from a re-analysis of the deposited data

How the results depend on the processing

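No paired analysis was possible because there is 1 library per antibody and no test. The RAB boundary share, 52.4%, stayed within its interval in 8 of 9 alternatives and was above the share of protein-coding genes in all 9; with the 4575 peaks highest in total signal it was 25.4%, against 13.2%. The start share then was 26%, against 13.4% of protein-coding genes with a listed start. The span share then was 31.7%, against 16.9% of all protein-coding genes. With peaks of maximum coverage 3 or more the span share was 57.1%, against 44.6% of all protein-coding genes. With the 22878 peaks highest in total signal it was 60.3%, against 45.5%. Partner genes gave boundary shares of 43.0%, 40.5% and 17.4% with peaks of maximum 3 or more, the 22878 peaks and the 4575 peaks. The boundary share over all protein-coding genes was 35.3% with windows of 500 bp and 45.8% with 2000 bp. By summit it was 36.7%, and with at least 50% of the peak in the window also 36.7%. With those 3 sets of higher peaks it was 32.2%, 30.4% and 13.2%. By member, 500 bp lost RAB25 and RAB37, the summit lost RAB34 and RAB37, 50% of the peak lost RAB37, and 2000 bp added RAB20. A maximum of 3 or more lost RAB7B, the single late endosome and lysosome member called, the 22878 peaks lost RAB8B, RAB13, RAB25, RAB37 and RAB43, and the 4575 peaks lost 17 members. Depth was not known, so signal under the authors' threshold cannot be seen in genes that lack peaks.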
